A study of Mus musculus with 2 samples.

Results

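Canonical WNT signaling ends in the nucleus, where β-catenin, encoded by *Ctnnb1*, binds to DNA-binding proteins of the TCF/LEF family. The data on 8 genes of this nuclear step are described here, in E11.5 mouse ureter explants in which WNT secretion was blocked for 18 h. They were the 4 genes of the TCF/LEF family (*Lef1*, *Tcf7*, *Tcf7l1* and *Tcf7l2*), *Ctnnb1*, the cofactor gene *Bcl9*, and the corepressor genes *Tle1* and *Tle3*. They were chosen by name, as nuclear effectors of the pathway, and all array probes that carried 1 of the 8 names were taken. All 8 were found among the 29924 gene names of the array, with 16 of its 39429 probes, and all 16 probes passed the filter on dim signals, as did 26947 probes and 20119 genes in all. There was 1 probe each for *Ctnnb1*, *Tcf7l1* and *Tle3*, 2 each for *Lef1*, *Tcf7* and *Bcl9*, 3 for *Tcf7l2* and 4 for *Tle1*.

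Ureters of wildtype NMRI embryos, of undetermined sex, were explanted at E11.5 and cultured for 18 h in serum-free medium. The treated explants received IWP-2 (10 µM), an inhibitor of the acyltransferase PORCN that WNT proteins need for their secretion, whereas the control explants received DMSO at 2:1000. A treated and a control pool of ureters were labelled in 2 colours and read side by side on 1 Agilent array with 60-base probes, each printed as 4 spots. This was done for 2 arrays with different pools, which are the replicates (n = 2), with AlexaFluor647 on the treated pool of replicate 1 and on the control pool of replicate 2. Each pool mixed several embryos, and each explant held epithelium and mesenchyme, so that a change within a cell type and a change in the number of its cells cannot be told apart for any of the genes.

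When no WNT ligand is bound, a cytoplasmic complex with AXIN, APC and GSK3 marks β-catenin for degradation, and TCF/LEF proteins on DNA hold corepressors of the Groucho/TLE family. Ligand binding stops the degradation, β-catenin enters the nucleus, replaces TLE on the TCF/LEF proteins, and recruits coactivators through BCL9 and Pygopus proteins. In the developing ureter, WNT ligands of the epithelium activate this pathway in the adjacent mesenchyme. *Lef1* and *Tcf7* are also known as target genes of the pathway in several tissues, whereas *Tcf7l1* is best known as a repressor.

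*Lef1* and *Tcf7* fell in IWP-2-treated ureters to a similar degree, to 54.0% (95% interval 45.6% to 63.8%) and 53.9% (45.2% to 64.2%) of the control level. These intervals are those of the limma fit, whose error is drawn largely from the spread of all genes. *Ctnnb1*, *Tcf7l1*, *Tcf7l2* and *Tle1* did not pass the test, with mean log2 ratios between -0.13 and 0.10, and their 95% intervals allowed levels between 74.8% and 126% of the control. *Bcl9* and *Tle3* lay between these groups, at 80.1% and 83.9% of the control level, and did not pass the test after adjustment over all genes. Thus, of the 8 genes, 2 were called lower and 0 higher at an adjusted p under 0.05 in limma, where at an unadjusted p under 0.05 it also gave *Bcl9* and *Tle3* as lower. Among all 20119 genes, 1.15% were called lower (232 genes) and 0.611% higher (123 genes) after adjustment. At an unadjusted p under 0.05 the order was turned, with 4.74% of all genes lower (954) and 8.67% higher (1745). Centring the arrays on their median instead of by loess gave 36 lower and 7 higher genes, with neither *Lef1* nor *Tcf7* among them.

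**Figure D1:**
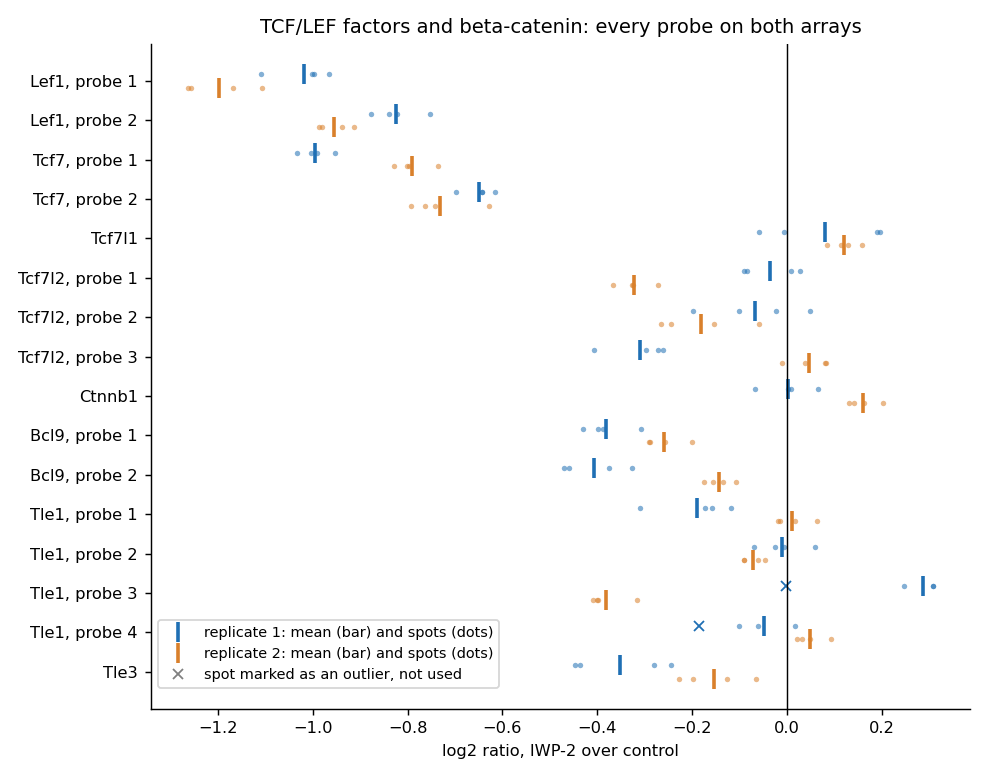
Log2 ratio of IWP-2 over control (x axis) for the 16 probes of the 8 genes (y axis; probes of a gene in order of position). Dots are the spots of a probe on replicate 1 (blue) and replicate 2 (orange), bars their mean, and crosses spots marked as outliers and left out. The 4 probes of Lef1 and Tcf7 lie between -1.20 and -0.65 on both arrays, and the other 12 between -0.41 and 0.29.

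Of the TCF/LEF genes, *Lef1* encodes a factor that activates transcription together with β-catenin. In processed intensities, its brighter probe (chr3:130926200-130926259 of mouse build mm9, plus strand) gave 347 in the control and 193 in the treated pool on replicate 1, and 354 in the control and 173 in the treated pool on replicate 2. Both control pools were higher than both treated pools. The log2 ratio was -0.82 on replicate 1 and -0.95 on replicate 2, with a mean of -0.89 ± 0.09 (SD, n = 2; adjusted p 0.0137 in limma). The second probe of *Lef1* (chr3:130907851-130926012, plus strand) covers 18162 bases of the genome with 60 bases of sequence, and therefore reads across at least 1 exon junction of spliced *Lef1* RNA. It is shown since it gave the largest decrease of the 16 probes.

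Lef1 probe across an exon junction: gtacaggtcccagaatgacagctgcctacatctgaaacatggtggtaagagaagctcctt

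This junction probe gave intensities of 188 in the control and 88.9 in the treated pool on replicate 1, and of 219 and 85.5 on replicate 2. Its mean log2 ratio was -1.11 ± 0.13 (SD, n = 2), 46.4% of the control level (adjusted p 0.00393 over all probes in limma). It was lower than that of the other *Lef1* probe by 0.20 on the log2 scale on replicate 1 and by 0.24 on replicate 2. Hence both *Lef1* probes fell on both arrays, and the difference between them had the same sign on both.

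*Tcf7* encodes TCF1, a family member for which both activating and shortened inhibitory forms are known. Its brighter probe (chr11:52066114-52066173, minus strand) gave 975 in the control and 478 in the treated pool on replicate 1, and 969 and 553 on replicate 2. Again, both control pools were higher than both treated pools. The log2 ratio was -0.995 on replicate 1 and -0.79 on replicate 2 (mean -0.89 ± 0.15, SD, n = 2; adjusted p 0.0153 in limma). The second probe (chr11:52066738-52066797, minus strand), 624 bases away in the genome, gave 213 and 133 on replicate 1 and 221 and 126 on replicate 2, with a mean log2 ratio of -0.69 ± 0.06 (SD, n = 2; adjusted p 0.0206 over all probes in limma). The means of *Lef1* and *Tcf7* did not differ in a fixed direction, as *Lef1* minus *Tcf7* was 0.17 on replicate 1 and -0.16 on replicate 2.

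*Tcf7l1* (TCF3) had an intensity of 2900 in the control and of 3111 in the treated pool on replicate 1 and 3027 and 3286 on replicate 2 (chr6:72576377-72576436, minus strand). Its log2 ratios of 0.08 and 0.12 had a mean of 0.10 ± 0.03 (SD, n = 2; 95% interval -0.13 to 0.34; adjusted p 0.835 in limma). Thus the small difference in favour of the treated pools was within the error of the fit. *Tcf7l2* (TCF4) was read by 3 probes that spread over 189366 bases of the gene. The brightest of them (chr19:56006638-56006697, plus strand) gave a log2 ratio of -0.31 on replicate 1 and 0.05 on replicate 2, that is, a sign that was not shared by the arrays. The probe at chr19:55817272-55817331 gave -0.03 and -0.32, and the probe at chr19:55994029-55994088 gave -0.07 and -0.18. None of the 3 passed the test, and their means lay between -0.18 and -0.12.

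Within each array, the mean of *Lef1* and *Tcf7* was lower than that of *Tcf7l1* and *Tcf7l2* by 0.80 on replicate 1 and by 0.96 on replicate 2 on the log2 scale. This difference of ratios is given without a test of its own.

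**Figure D2:**
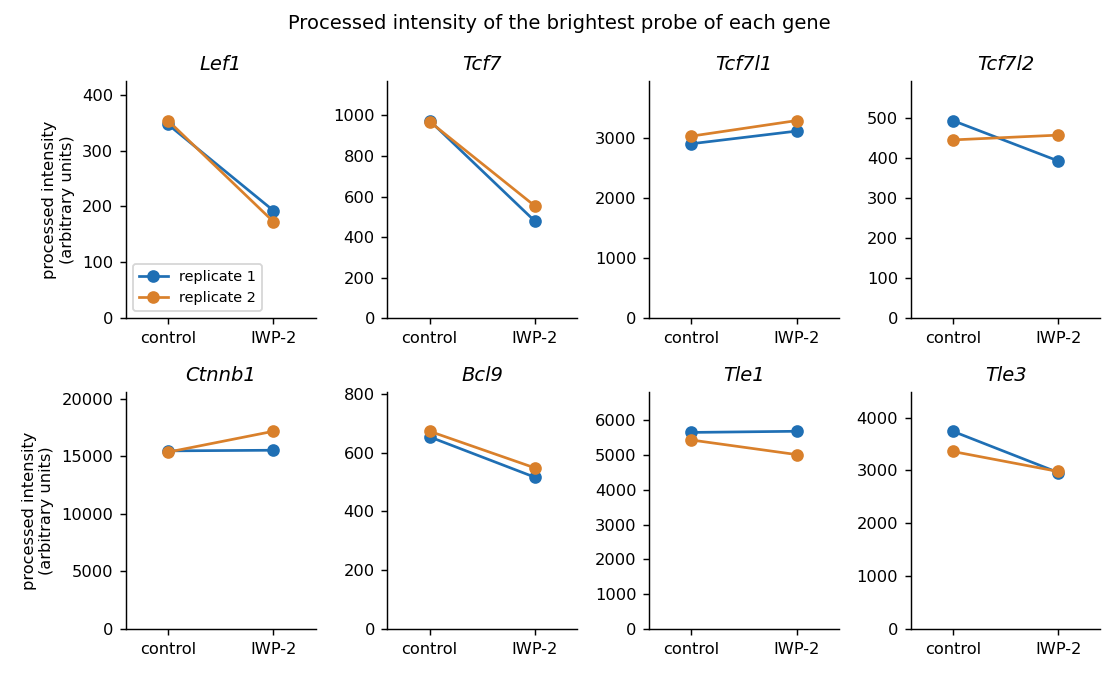
Processed intensity (y axis, arbitrary units, from 0) of the brightest probe of each gene in the control and the IWP-2-treated pool, joined for each array (blue, replicate 1; orange, replicate 2). Lef1 and Tcf7 are lower in both treated pools, while Ctnnb1 lies between 15345 and 17157 in all 4 channels.

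β-catenin itself is encoded by *Ctnnb1*. Its probe (chr9:120869274-120869333, plus strand) gave 15455 in the control and 15509 in the treated pool on replicate 1, and 15345 and 17157 on replicate 2. The log2 ratios of 0.00 and 0.16 had a mean of 0.08 ± 0.11 (SD, n = 2; adjusted p 0.896 in limma), which is 106% of the control level with a 95% interval of 89.2% to 125%. A decrease of *Ctnnb1* RNA of the size seen for *Lef1* and *Tcf7* was thus outside its interval. The arrays measured RNA and not β-catenin protein, which the pathway controls through degradation. The mean of *Lef1* and *Tcf7* was lower than *Ctnnb1* by 0.91 on replicate 1 and by 1.03 on replicate 2.

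*Bcl9* encodes the adaptor between β-catenin and Pygopus proteins. Its brighter probe (chr3:97008238-97008297, minus strand) gave 653 in the control and 516 in the treated pool on replicate 1, and 672 and 547 on replicate 2. The treated pools were lower on both arrays, with log2 ratios of -0.38 and -0.26 (mean -0.32 ± 0.09, SD, n = 2; unadjusted p 0.0168 and adjusted p 0.225 in limma). The second *Bcl9* probe, 348 bases away, gave -0.41 and -0.14, and its adjusted p was 0.36 over all probes in limma. Hence both *Bcl9* probes were below 0 on both arrays, read from the same 2 pairs of pools, and the gene did not pass the test.

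Corepressors of the Groucho/TLE family were represented by *Tle3* and *Tle1*. *Tle3* (chr9:61266180-61266239, plus strand) gave 3742 in the control and 2961 in the treated pool on replicate 1, and 3359 and 2981 on replicate 2. Its log2 ratios were -0.35 and -0.15 (mean -0.25 ± 0.14, SD, n = 2; unadjusted p 0.0491 and adjusted p 0.37 in limma). The treated pools were lower on both arrays, but not beyond the error of the fit after adjustment. The brightest *Tle1* probe (chr4:71779250-71779309, minus strand) gave log2 ratios of -0.01 and -0.07 (mean -0.04 ± 0.04, SD, n = 2; adjusted p 0.964 in limma). *Tle3* minus *Tle1* was -0.34 on replicate 1 and -0.08 on replicate 2.

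The 4 *Tle1* probes did not behave alike. Those at chr4:71779171-71779230 and chr4:71818785-71818844 gave ratios between -0.19 and 0.05. The probe at chr4:71787380-71787439 (minus strand) is shown because its ratio was 0.29 on replicate 1 and -0.38 on replicate 2.

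Tle1 probe with opposite ratios on the arrays: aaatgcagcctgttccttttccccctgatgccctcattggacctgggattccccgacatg

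On this probe, the channel with AlexaFluor647 was the higher one on both arrays, by 0.33 on the log2 scale when the arrays were averaged by dye instead of by treatment. In the other 15 probes, the size of this difference by dye was 0.18 or less, against a median of 0.08 over all tested probes, and 2.33% of all tested probes reached the 0.33 of the *Tle1* probe. On replicate 1, 1 of the 4 spots of this probe was marked as an outlier and left out, with a ratio of -0.00, while the other 3 lay between 0.25 and 0.31. For the 4 probes of *Lef1* and *Tcf7*, the difference by dye was between -0.10 and 0.09, smaller than the difference by treatment on each of them.

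At the level of probes, all 4 probes of *Lef1* and *Tcf7* were called lower at an adjusted p under 0.05 in limma, and 0 of the 12 probes of the other 6 genes. Of all 26947 probes tested, 1.23% were called lower. At an unadjusted p under 0.05, limma also gave both *Bcl9* probes and the *Tle3* probe as lower, as it did 4.98% of all probes. Of the 12 probes, 6 were below 0 and 2 above 0 on both arrays, and 4 had opposite signs on the arrays. Among all 20119 genes tested, the arrays shared a sign for 56.0%. The 12 probes stand for 6 genes read on the same 2 arrays, so they are not 12 separate observations. Spots of 1 probe on 1 array differed little, with an SD between 0.02 and 0.13 over the 16 probes, but such spots repeat 1 hybridisation and are not replicates of the treatment.

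**Figure D3:**
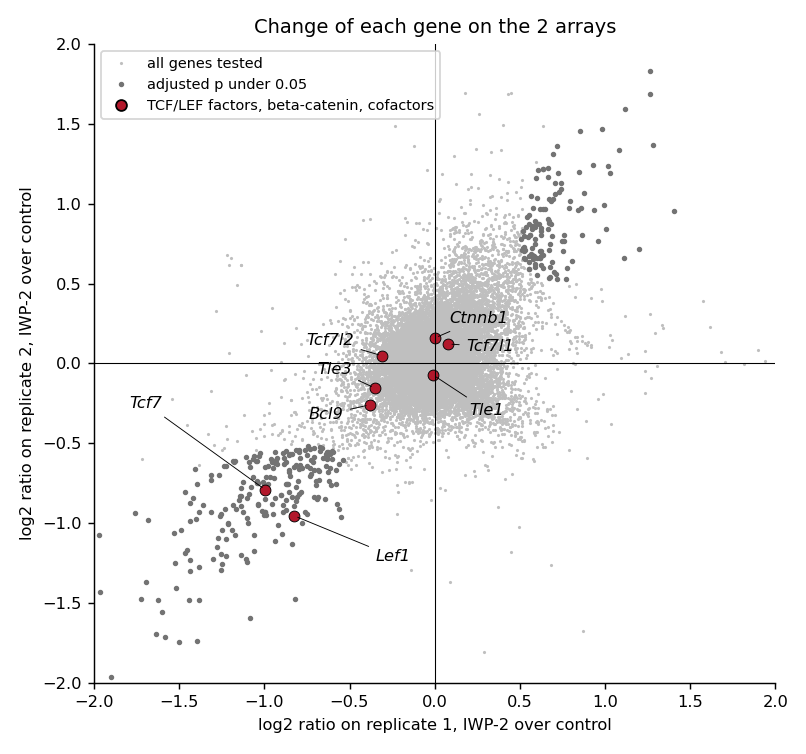
Log2 ratio of IWP-2 over control on replicate 1 (x axis) and replicate 2 (y axis) for the 20119 genes tested, with the 8 genes in red and genes with an adjusted p under 0.05 in dark grey; 30 genes fall outside the plotted range of -2 to 2. Lef1 and Tcf7 lie among the genes called lower, and the other 6 within the cloud of genes not called.

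Among the 20119 genes ranked from the lowest mean log2 ratio, *Tcf7* was number 120 and *Lef1* number 125, that is, 0.591% and 0.616% of genes had a lower mean. For *Bcl9* this share was 3.31% and for *Tle3* 4.87%, while *Tcf7l2* (14.6%), *Tle1* (36.1%), *Ctnnb1* (72.2%) and *Tcf7l1* (75.9%) lay further inside the distribution. On the single arrays, the share was 1.09% and 0.383% for *Lef1* and 0.736% and 0.666% for *Tcf7*. For *Tcf7l2* it was 6.50% on replicate 1 and 56.7% on replicate 2.

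The study chose genes without a test, by cut-offs of intensity and fold change on each array. A filter of this kind was applied here to genes that differed 2-fold or more with a shared sign on each array and reached an intensity of 100 in the brighter channel. That the brighter channel and the brightest probe of a gene were used was a choice made here, so that the genes passing need not be those of the study. All 8 genes were bright enough, and 0 of the 8 passed, where 0.344% of the 14550 genes that were bright enough passed as lower. *Lef1* was 1.80-fold lower on replicate 1 and 2.05-fold lower on replicate 2, and *Tcf7* was 2.04-fold and 1.75-fold lower. Each of the 2 genes was thus past 2-fold on 1 array and short of it on the other. A fold change of 1.5 on both arrays was passed by both as lower, as by 1.13% of the 14550 genes, and by none of the other 6.

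The call of *Lef1* and *Tcf7* depended on the processing of the arrays and on the threshold, while their means stayed below 0 in every setting tried. At a threshold of 0.01, neither was called in the fit over genes. In the fit over probes, 3 of their 4 probes passed that threshold, both of *Lef1* and the brighter of *Tcf7*. Centring on the median gave a mean log2 ratio of -0.91 with an adjusted p of 0.201 in limma for *Lef1*, and of -0.93 with an adjusted p of 0.164 for *Tcf7*. With the processed intensities of the scanner software, limma called 0 of the 20119 genes, against 1108 lower and 1356 higher genes at an unadjusted p under 0.05, and both *Lef1* (-0.94) and *Tcf7* (-0.92) had an adjusted p of 0.396. The rounded fold changes of the series table gave -0.96 and an adjusted p of 0.0503 for *Lef1*, and -0.92 and 0.139 for *Tcf7*. In these rounded values, *Tcf7l1* was higher by 0.14 with an adjusted p of 0.0419 in limma. The same values gave 1322 lower and 1038 higher genes among all 20119. Over these settings, the 8 others tried and the single arrays, *Lef1* ranged from -0.999 to -0.82 and *Tcf7* from -0.995 to -0.79.

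**Figure D4:**
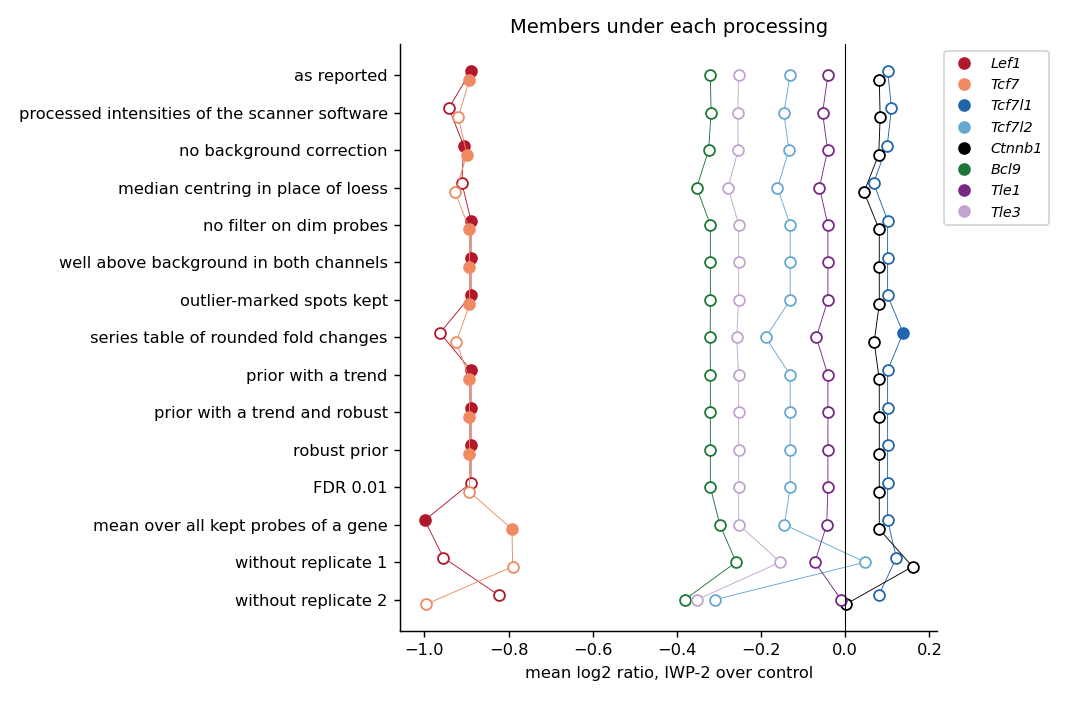
Mean log2 ratio of IWP-2 over control (x axis) of the 8 genes (colours) as reported, under 12 other settings and on each array alone (y axis). Filled circles passed the threshold in limma and open circles did not, and values from a single array have no test. Lef1 and Tcf7 stay between -0.999 and -0.79 throughout, and the other 6 genes between -0.38 and 0.16.

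Other genes of the pathway in the nucleus (nuclear partners) were compared as a list of 26 gene names, of which 25 were on the array and were tested. Of these, 1 was called lower and 0 higher, beside 1.15% lower and 0.611% higher among all genes tested. At an unadjusted p under 0.05, limma also gave *Ctbp2* (-0.27) and *Bcl9l* (-0.24) as lower. At that p, 4.74% of all genes were lower and 8.67% higher. The median log2 ratio was -0.08, where it was 0.00 over all genes tested. The gene called was *Tle4*, a further Groucho/TLE corepressor. Its intensity was 512 in the control and 288 in the treated pool on replicate 1, and 645 and 335 on replicate 2. Both treated pools were lower than both control pools, with log2 ratios of -0.76 and -0.93 (mean -0.85 ± 0.12, SD, n = 2; adjusted p 0.0173 in limma). The largest increase shared by both arrays was that of *Tnik*, a kinase that acts on TCF/LEF complexes, with a mean of 0.16 ± 0.02 (SD, n = 2; adjusted p 0.632 in limma). With median centring and with the processed intensities, 0 of the 25 were called.

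Of 23 genes that control the turnover, phosphorylation or binding of β-catenin, all tested, 0 were called at an adjusted p under 0.05 in limma, against 2 at an unadjusted p under 0.05, *Axin2* and *Amer1*, both lower, and the median log2 ratio was -0.02. This count of 2 in 23 stands beside the 4.74% of all genes that were lower at that p. After adjustment, 1.15% of all genes were lower and 0.611% higher. The largest decrease was that of *Axin2*, which encodes a scaffold of the degradation complex and is itself a target gene. It changed by -1.38 on replicate 1 and by -0.64 on replicate 2 (mean -1.01 ± 0.53, SD, n = 2), and its adjusted p of 0.0502 in limma was just outside the threshold. The largest increase shared by both arrays was that of *Cdh1*, the epithelial cadherin that binds β-catenin at the membrane (0.24 ± 0.17, SD, n = 2; adjusted p 0.42 in limma).

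Of 20 known TCF/LEF target genes, 18 passed the filter on dim signals and were tested, and *Dkk4* and *Fgf20* did not pass it. When the list was made, earlier results of these data on part of it were known. Its counts are therefore not independent of them. A total of 6 were called lower and 0 higher, beside 1.15% lower and 0.611% higher among all genes tested. The median log2 ratio of the list was -0.37. The genes called were *Nkd1* (-1.31), an intracellular antagonist of the pathway, *Apcdd1* (-1.27), an inhibitor at the membrane, *Sp5* (-1.12) and *Msx1* (-0.96), which encode transcription factors, *Wif1* (-0.84), a secreted WNT inhibitor, and *Tnfrsf19* (-0.73), a receptor of the TNF family. Their adjusted p was between 0.00414 and 0.0292 in limma, and *Axin2*, which is also on this list, was not called. None of the 18 was above 0 on both arrays, and 13 were below 0 on both. *Cdx1*, *Znrf3* and *T* lay near the intensity floor of 15, at 19.8 or less in every channel. *Cdx1* and *Znrf3* are among the 13. Over all 20119 genes tested, 5727 were above 0 and 5541 below 0 on both. *Lef1* and *Tcf7*, with means of -0.89 each, had been kept off this list. Their decreases lay within the range of the 6 genes called. These 6 were selected by the same threshold that *Lef1* and *Tcf7* passed, so a place within their range was largely set in advance. Over all 18 genes tested, the means ran from -1.31 to 0.04, and *Lef1* and *Tcf7* were lower than the median of -0.37. With median centring 1 of the 18 was called lower, and with the processed intensities 0.

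**Figure D5:**
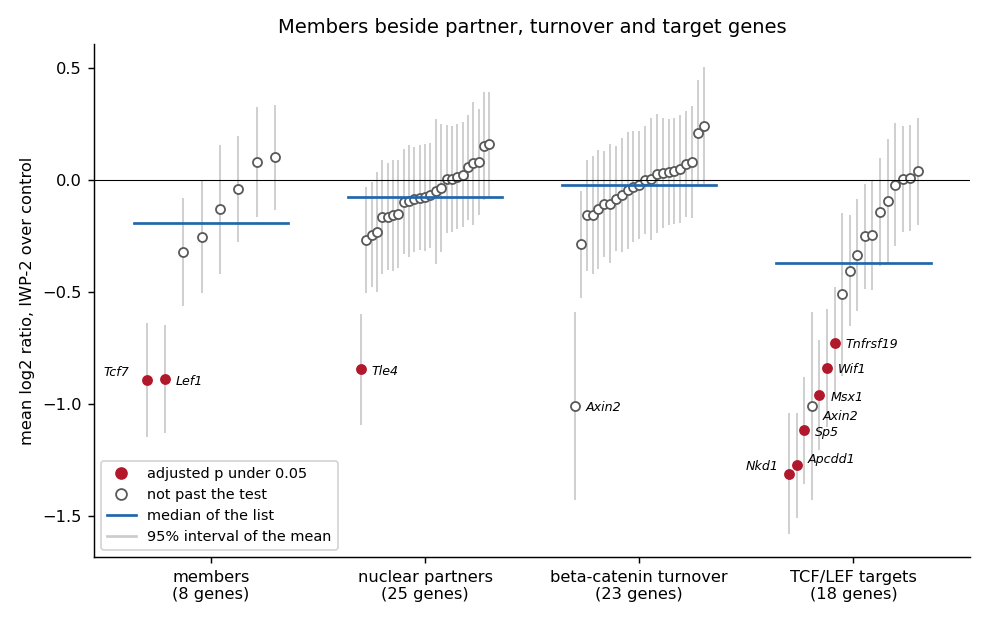
Mean log2 ratio of IWP-2 over control (y axis) of the 8 genes and of the genes of each list (x axis, genes in order of their mean), with the 95% interval of the fit (grey) and the median of the list (blue). Red circles have an adjusted p under 0.05 in limma: 2 of 8, 1 of 25, 0 of 23 and 6 of 18 genes.

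The ureter explants expressed markers of both layers of the ureter, as all 10 epithelial and all 10 mesenchymal marker genes had an intensity of 688 or more in every channel. Such intensities were not particular to these layers. Markers of kidney mesenchyme (914 or more in every channel) and of nerve (2370 or more) reached them as well. The counts of markers below stand beside those of all 20119 genes tested. Of these, 5541 were below 0 and 5727 above 0 on both arrays, and 1.15% were called lower and 0.611% higher. Of the mesenchymal markers 2 were called lower, *Tbx18* (-1.03) and *Tcf21* (-0.77), 7 were below 0 on both arrays, and 2, *Vim* (0.31) and *Meis1* (0.33), were above 0 on both. The list had a median log2 ratio of -0.34 on replicate 1 and -0.18 on replicate 2. Its genes *Tbx18*, *Tbx2* and *Tbx3* are described in the study as dependent on mesenchymal *Ctnnb1*. A change of these genes is therefore not a measure of cell number alone. The epithelial markers had a median of 0.13 and 0.32, with 6 above and 1 below 0 on both arrays, and 0 of 10 were called. All 8 endothelial markers were above 0 on both arrays (median 0.38 on replicate 1 and 0.58 on replicate 2), with *Cldn5* and *Kdr* called higher, and their summed intensity was 23452 in the treated against 16808 in the control pool on replicate 1 and 19759 against 12449 on replicate 2. Markers of macrophages (5 of 5 above 0 on both arrays, medians 0.35 and 0.58, *Adgre1* called higher) and nerve (4 of 5, medians 0.46 and 0.34) likewise had medians above 0. For blood, with 4 of 6 above 0 on both arrays, the median was 0.11 on replicate 1 and 0.73 on replicate 2. The part of these shifts in the values of the 8 genes was not tested. Markers of kidney mesenchyme had a median of 0.56 on replicate 1 and -0.37 on replicate 2, with 1 of 4 below and 1 above 0 on both arrays. Of these, *Six2* gave 1.03 and -0.38, and *Wt1* gave -0.14 and -1.29. *Porcn*, the gene of the IWP-2 target, had log2 ratios of -0.08 and 0.26 (adjusted p 0.901 in limma), so its RNA did not check the treatment.

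Promoter windows of the 8 genes were searched for the TCF/LEF core letters. The reference held 14 windows for the 8 genes, each from 250 bases before to 50 after an annotated start in RefSeq (build GRCm38.p6), with overlaps between windows of *Lef1* and of *Ctnnb1*. The letters CTTTGA or CTTTGT, on either strand, were in 3 of the 14 windows and in 31.2% of all 32851 windows. The shorter CTTTG, which both contain, was in 7 of the 14 and in 53.9% of all windows. The 3 windows belong to *Lef1*, *Tcf7l1* and *Tcf7l2*, and neither of the 2 windows of *Tcf7* held the longer letters. A window at a start inside the *Lef1* gene held 3 of them, 2 CTTTGA and 1 CTTTGT, all on the opposite strand, which begin 180, 146 and 120 bases before that start. This window and the window at the outermost start of *Lef1* are shown with that of *Tcf7l1* for comparison, each as the 250 bases before the start, read in the direction of the gene, with CTTTGA and CTTTGT in capitals (TCAAAG or ACAAAG where they are on the opposite strand).

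Lef1, inner start, chr3:131156044-131156293 (plus strand): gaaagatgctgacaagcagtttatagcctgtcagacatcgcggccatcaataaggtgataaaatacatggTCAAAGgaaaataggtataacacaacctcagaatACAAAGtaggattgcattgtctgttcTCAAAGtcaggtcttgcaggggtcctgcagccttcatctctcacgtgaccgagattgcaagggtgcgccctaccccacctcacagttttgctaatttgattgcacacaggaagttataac
Lef1, outermost start, chr3:131110047-131110296 (plus strand): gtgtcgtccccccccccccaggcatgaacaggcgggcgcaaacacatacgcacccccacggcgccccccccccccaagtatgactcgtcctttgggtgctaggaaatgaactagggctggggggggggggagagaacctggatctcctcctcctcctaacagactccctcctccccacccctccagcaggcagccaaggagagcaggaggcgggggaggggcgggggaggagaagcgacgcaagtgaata
Tcf7l1, chr6:72789046-72789295 (minus strand): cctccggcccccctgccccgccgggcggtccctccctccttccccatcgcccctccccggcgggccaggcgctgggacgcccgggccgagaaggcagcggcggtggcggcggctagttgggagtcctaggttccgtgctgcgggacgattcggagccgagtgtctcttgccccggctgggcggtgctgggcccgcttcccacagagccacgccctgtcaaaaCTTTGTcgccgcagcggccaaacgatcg

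The outermost *Lef1* window held none of the longer letters, and that of *Tcf7l1*, which was not called, held 1. The arrays did not measure from which start the *Lef1* RNA was made, and these letters are a description of the windows only.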

How the data were processed

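RNA of IWP-2-treated and control ureter pools was compared on 2 two-colour arrays (design 084956) on the same slide. The deposited intensity columns, per the file headers, are spot and local background signals from Feature Extraction 12.2.0.7 (the submitters' processing notes name 10.7.3.1), and processed intensities, which are background-subtracted and dye-normalized. Other deposited columns mark outlier, saturated and well measured spots. The deposited series table holds a signed fold change, used as a score after conversion to log2. Probe positions are those of the files (mm9), for which no annotation of exons was used.

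In R 4.3.3 with limma 3.58.1 and data.table (version 1.17.8), mean signals were corrected by normexp (offset 50) and normalized by loess within arrays. Outlier spots were dropped, spots of a probe averaged, and probes kept with over 0.5 of spots well above background in 1 channel type on both arrays. The brightest kept probe stood for a gene. Ratios, treated over control, were tested with lmFit and eBayes after turning swapped ratios, and adjusted by Benjamini-Hochberg over all genes or probes. With 1 residual degree of freedom, the number of arrays limits the precision, and p-values and intervals measure the spread between 2 pairs of pools, moderated by a variance shared over all genes (5.52 prior of 6.52 total degrees of freedom). An exact sign permutation of 2 arrays cannot go below p = 0.5. Processed intensities are geometric means of spots, with values under 15 set to 15. The procedure was tested on simulated spots. The 8 genes, the lists and the markers were chosen with earlier results of these data known. All 8 genes are named, and of each list the genes called and those with the largest decrease and increase shared by both arrays. For the partner and turnover lists, genes with an unadjusted p under 0.05 in limma are named as well. Alternatives changed the background correction, scaling, filter, outlier rule, prior, threshold, probe rule and number of arrays.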

Additional observations from a re-analysis of the deposited data

How the results depend on the processing

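The count of 2 lower among the 8 genes (*Lef1* and *Tcf7*) was 0 with the processed intensities, with median centring, with the series table and at a threshold of 0.01, and the series table gave 1 higher gene (*Tcf7l1*). Of their 4 probes, 0 were called with the processed intensities and the series table, 1 with median centring and 3 at a threshold of 0.01. The series table called 1 member probe higher. With these settings, in the order processed intensities, median centring, series table and threshold of 0.01, the nuclear partners gave 0, 0, 3 and 0 lower genes in place of 1, and the target genes 0, 1, 2 and 3 in place of 6. The series table called 1322 of all 20119 genes lower and 1038 higher, in place of 232 and 123. Of the turnover genes, 1 was lower in place of 0 with the series table, with a trend in the prior, with a trend and robust prior, and with the mean over all probes, and the series table gave 1 higher. The cause of these changes was not tested. Values of the series table are rounded, so that they can be equal on both arrays with a spread of 0. How often this occurred was not counted, and its part in the calls was not tested. Of the 8 genes, 0 passed the fold filter as reported, 2 (*Lef1* and *Tcf7*) with a fold change of 1.5, and 1 on each array alone (without replicate 1 *Lef1*, without replicate 2 *Tcf7*). No mean of the 8 genes changed its sign under the 12 other settings. On single arrays *Tcf7l2* ranged from -0.31 to 0.05. The separate-channel model with a dye term could not be fitted, as its within-spot correlation was estimated at 1. No paired analysis was possible beyond the one reported, because each ratio already pairs the treated and the control pool of an array. Of the 8 genes, *Lef1* had the dimmest channel (85.5). Signals were lower in the lists, with *Sp5* at 22.8 and 20.8 in the treated pools. *Cdx1*, *Znrf3* and *T* were near the floor of 15 in all channels.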
